A study of Mus musculus with 35 samples.

Results

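The endoplasmic reticulum (ER) stress response was followed through 35 genes listed by name, measured in brain hemispheres of mice with and without the beta2 adrenergic receptor. Of the 35 genes, 14 code for chaperones, co-chaperones and disulfide isomerases of the ER lumen and membrane, 8 for proteins of ER-associated degradation and translocation, 5 for stress sensors and transcription factors, and 8 for targets of the stress factors. All 35 were on the array, among 18193 genes with a probe set of their own. These symbols were carried by 81 probe sets, and each gene was read from its brightest one on average. A single probe set stood for 10 of the genes, and the other 25 had several.

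Male mice on an FVB background, wild type or beta2 adrenergic receptor knockout, underwent middle cerebral artery occlusion (MCAO), a model of focal stroke, or sham surgery, and the hemisphere of the operated side was taken 24 h later. Each genotype had 7 arrays after MCAO and 3 after sham surgery, with sham as the control of MCAO within a genotype. A separate set held 8 wild type and 7 knockout arrays of naive mice, normalized by the authors apart from the surgery arrays, and no value was compared across the sets. The knockout groups lack the receptor throughout, and the labels give neither the mice's age nor whether each array is a separate animal, so p-values measure the spread between arrays. Levels below are log2 RMA signals, on which 1 unit is a doubling, and changes are differences of group means on that scale. Calls rest on limma with p-values adjusted by Benjamini-Hochberg over all 18193 genes, at a threshold of 0.05.

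The ER folds secreted and membrane proteins. When unfolded protein accumulates, Hspa5 (BiP), the main lumenal Hsp70 chaperone, is drawn away from sensors in the ER membrane, among them IRE1 (Ern1), PERK (Eif2ak3) and ATF6. IRE1 splices Xbp1 mRNA and ATF6 is cut in the Golgi, and the resulting factors induce chaperones and the machinery of ER-associated degradation (ERAD). PERK phosphorylates eIF2alpha, which slows translation in general but favours translation of Atf4, and ATF4 induces Ddit3 (CHOP) and other targets. Other eIF2alpha kinases reach the same targets without ER stress, which is why this branch is also called the integrated stress response. In stroke, loss of energy and of ER calcium is known to engage both branches. RNA levels do not show splicing, cleavage or phosphorylation.

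Promoter sequences are shown because the chaperone and ATF4 branches are known to act through different elements. The window ran from 250 bases before to 50 after the annotated start, in RefSeq sequence of GRCm38.p6, which is the C57BL/6J reference and not the FVB genome. Of the 35 genes 31 had an entry. Hyou1, Manf, Derl1 and Atf6 were not matched. Motifs were searched on both strands. The ER stress element, CCAAT and CCACG with 9 bases between them, lay in 39 of 32851 promoters, or 0.119%, and in 9 of the 31 genes, namely Hspa5, Hsp90b1, Calr, Canx, Pdia6, Dnajc3, Creld2, Syvn1 and Derl3. The shorter ER stress element II, ATTGG and CCACG with 1 base between them, lay in 0.0365% of promoters and in Dnajb11 and Herpud1. The C/EBP-ATF response element, searched as TGATGNAA, lay in 3.97% of promoters and in Herpud1, Trib3, Chac1, Asns and Nupr1. The element TGACGTGG lay in 0.676% of promoters and in 0 of the 31. No match says only that these letters are not in the window.

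The ER stress element is printed for the 4 genes of the folding and ERAD groups that hold it and differed between genotypes in their change after MCAO, together with Hspa5. The stretches lie at chr2:34771985-34772084 (plus strand) for Hspa5, chr10:86705524-86705665 (minus strand) for Hsp90b1, chr15:88819479-88819578 (plus strand) for Creld2, chr11:50325760-50325859 (minus strand) for Canx and chr10:75893201-75893300 (plus strand) for Derl3. They run 5′ to 3′ on the strand of the gene, and capitals mark the fixed letters of the element, in either direction. Hsp90b1 holds it in both directions.
Hspa5: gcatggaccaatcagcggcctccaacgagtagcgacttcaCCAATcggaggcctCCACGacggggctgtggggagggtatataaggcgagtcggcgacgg
Hsp90b1: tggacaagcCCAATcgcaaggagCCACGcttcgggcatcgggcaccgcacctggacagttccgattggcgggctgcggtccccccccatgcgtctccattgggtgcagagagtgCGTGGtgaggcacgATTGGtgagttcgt
Creld2: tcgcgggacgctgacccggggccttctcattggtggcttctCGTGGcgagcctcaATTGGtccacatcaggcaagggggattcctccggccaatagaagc
Canx: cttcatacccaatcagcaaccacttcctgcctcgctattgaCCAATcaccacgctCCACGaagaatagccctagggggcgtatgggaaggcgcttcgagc
Derl3: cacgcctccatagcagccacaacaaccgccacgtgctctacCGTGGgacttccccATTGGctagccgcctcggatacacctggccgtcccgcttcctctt

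The C/EBP-ATF element is printed for the 5 genes that hold it. The stretches lie at chr8:94386303-94386402 (plus strand) for Herpud1, chr6:7693190-7693289 (minus strand) for Asns, chr2:152344031-152344130 (minus strand) for Trib3, chr2:119351003-119351102 (plus strand) for Chac1 and chr7:126625527-126625626 (minus strand) for Nupr1. Capitals mark its fixed letters and, in Herpud1, also those of ER stress element II. Asns and Trib3 are shown slightly past the annotated start. The 2 motifs of Herpud1 do not overlap.
Herpud1: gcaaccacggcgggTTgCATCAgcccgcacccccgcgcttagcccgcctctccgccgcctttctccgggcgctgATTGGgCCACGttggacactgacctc
Asns: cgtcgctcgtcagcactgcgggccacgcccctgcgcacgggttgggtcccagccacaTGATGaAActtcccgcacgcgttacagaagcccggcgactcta
Trib3: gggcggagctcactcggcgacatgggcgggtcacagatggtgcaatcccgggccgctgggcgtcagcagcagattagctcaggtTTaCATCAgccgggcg
Chac1: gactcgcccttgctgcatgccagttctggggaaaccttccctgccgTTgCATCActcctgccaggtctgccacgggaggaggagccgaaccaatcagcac
Nupr1: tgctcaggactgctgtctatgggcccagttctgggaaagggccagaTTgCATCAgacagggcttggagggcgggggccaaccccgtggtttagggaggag

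The arrays were checked before the genes. Neuronal markers were bright in every group (Snap25, a synaptic vesicle fusion protein, averaged 13.98 in wild type sham) and above the median gene there. The arrays carry probe sets for both ends of the actin transcript, and their 3 prime minus 5 prime difference grows when transcripts are incomplete. It was 1.60 to 1.76 on the 3 knockout sham arrays and 0.86 to 1.01 on the 3 wild type sham arrays, without overlap, against 0.39 to 1.70 after MCAO in wild type and 0.43 to 1.75 in knockout. The interquartile range of the log2 signals on an array was also apart between the sham groups. It was 3.33 to 3.42 in knockout and 3.61 to 3.81 in wild type, and its part in the gene values was not tested. Wild type MCAO array 4 and knockout MCAO array 4 had the lowest correlation with the other surgery arrays, and knockout MCAO arrays 2 and 5 the highest Gapdh 3 prime minus 5 prime difference. These 4 arrays were left out in a repeat of each fit.

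**Figure D1:**
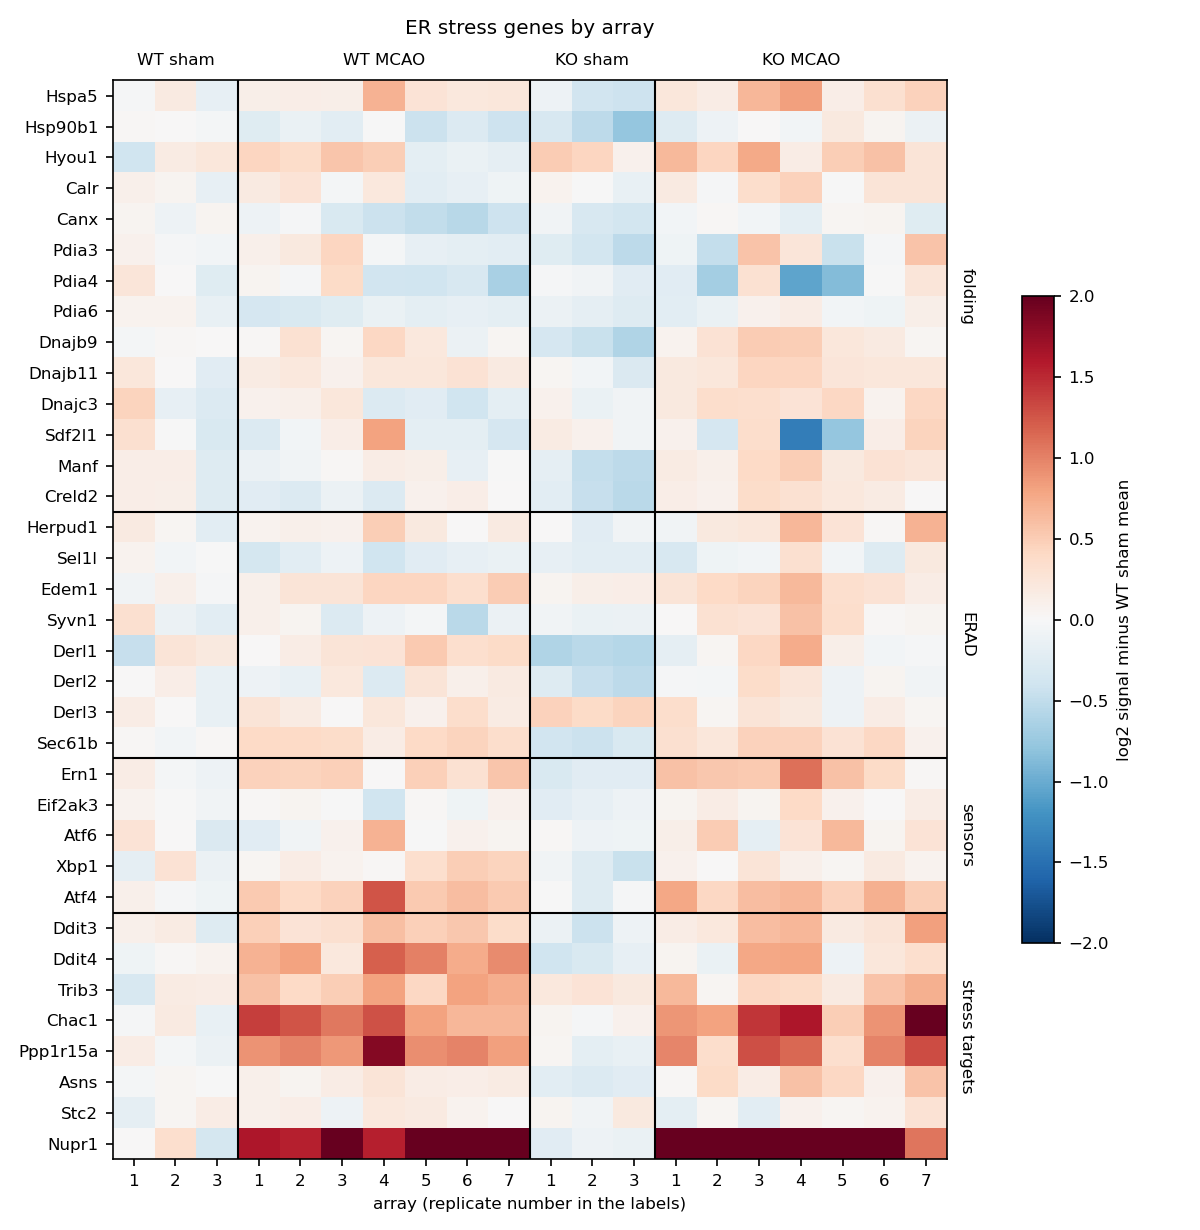
Log2 signal of the 35 ER stress genes on each of the 20 surgery arrays, as the difference from the wild type sham mean of the gene; rows are ordered by role and the colour scale stops at 2 in either direction. In the bottom block (stress targets) the rows of Nupr1, Chac1 and Ppp1r15a are red on all MCAO arrays of both genotypes, with Nupr1 deepest, while Ddit4 and Stc2 fall below the wild type sham mean on some knockout MCAO arrays, and many rows of the folding and ERAD blocks are blue on the 3 knockout sham arrays.

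After MCAO the transcription factor gene Atf4 and 5 of the 8 targets (Ddit3, Ddit4, Chac1, Ppp1r15a and Nupr1) rose in both genotypes. Of the 14 folding genes 6 rose in knockout mice and 0 in wild type. The test of the genotype difference was passed by 5 of the 14, where 4.09% of all genes were called higher. These sets differ: Canx passed that test without being called in knockout, and Hspa5 and Dnajb11 rose in knockout without passing it. With repeated quantile normalization or a term for the actin difference, 0 passed it. In wild type 9 of the 35 genes rose and 1 fell, where 8.68% of all 18193 genes rose and 7.27% fell (15.9% in all). In knockout mice 19 rose and 1 fell, where 16.1% of all genes rose and 8.9% fell (25% in all). The median change of the 35 was 0.14 in wild type, beside 0.05 over all genes, and 0.39 in knockout, beside -0.00. All MCAO arrays lay above all sham arrays for 10 of the 35 genes in wild type (10.6% of all genes did so) and for 21 in knockout (15.6%). Without wild type sham array 1 or 3, the wild type count was 6 of 35. Injury-response markers (Lcn2, Timp1, Cd44, Socs3, Vim and Hspb1) rose in both genotypes, 6 of 6. Of 5 microglia markers 2 fell in each genotype. Oligodendrocyte markers rose for 3 of 5 in wild type and 2 of 5 in knockout, and astrocyte markers for 2 of 6 in each. Endothelial markers rose for 2 of 6 in each genotype, and 1 fell in wild type. In wild type 1 of 6 neuronal and 1 of 3 striatal neuron markers fell, and in knockout 0 of either did. Choroid plexus markers were called for 0 of 6 in either genotype, and of 5 liver markers 1 fell in knockout. Of 7 markers of meninges and fibroblasts 1 rose in wild type and 4 in knockout, and of 9 neutrophil and monocyte markers 3 rose in wild type, while 4 rose and 3 fell in knockout. Plasma and B cell markers, whose cells are rich in these chaperones, did not pass the test as higher (0 of 5 in either genotype), and 2 of them fell in knockout. The part of these cells in the changes was not tested, and in hemisphere RNA fewer cells of a type and less RNA per cell cannot be told apart.

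**Figure D2:**
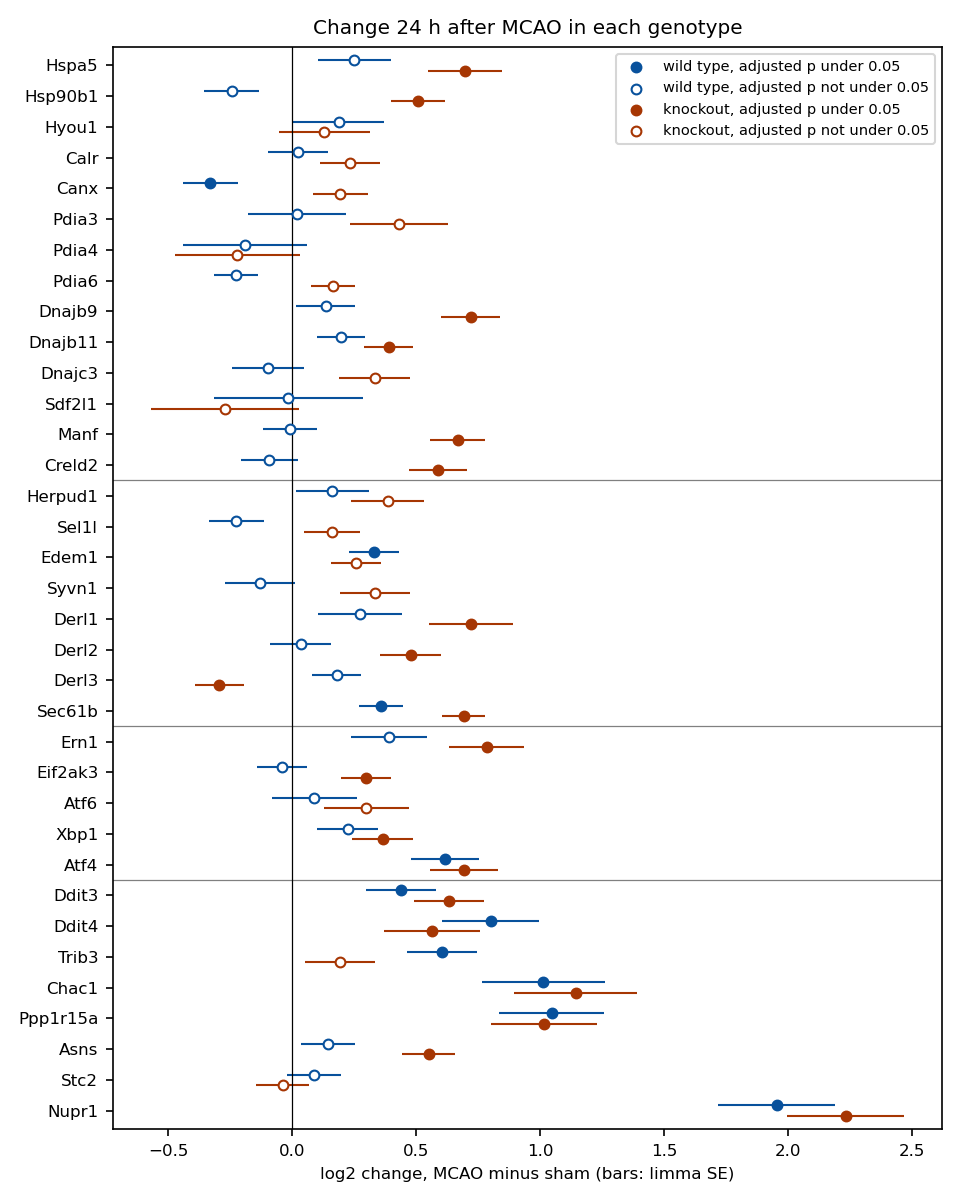
Change of each gene 24 h after MCAO (log2, MCAO minus sham) in wild type (blue) and knockout (red) mice, with limma standard errors; filled points had an adjusted p under 0.05. Filled points of both genotypes lie in all 4 role groups. Of the 10 filled wild type points 6 are among the targets at the bottom, and the only one among the folding genes is Canx, which fell, where 6 knockout points are filled.

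Among sensors and transcription factors, Atf4, which codes for the factor made when eIF2alpha is phosphorylated, rose in both genotypes. The wild type sham arrays read 11.08, 10.96 and 10.90, and the wild type MCAO arrays ran from 11.38 over a median of 11.50 to 12.24. The knockout sham arrays read 10.96, 10.72 and 10.95, and the knockout MCAO arrays ran from 11.40 over 11.60 to 11.75. In both genotypes every MCAO array lay above every sham array. The change was 0.62 in wild type (SE 0.139, adjusted p = 0.00457, n = 7 and 3) and 0.69 in knockout (SE 0.139, adjusted p = 0.00121). With the mean of all Atf4 probe sets the wild type change was 0.32.

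The other sensors passed the test in knockout mice only in part, and in wild type none of them did. Ern1, which codes for the sensor IRE1, read 7.29, 7.37 and 7.37 in knockout sham and 7.61 to 8.69 (median 8.13) in knockout MCAO. The groups did not overlap, and the change was 0.78 (SE 0.152, adjusted p = 0.000934). In wild type it was 0.39 (adjusted p = 0.0866). The 4 further probe sets of Ern1 pointed the other way in knockout, none of them called among the 34945 probe sets with 1 gene symbol, over which p-values of further probe sets were adjusted, and their mean with the chosen one was -0.03.

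Eif2ak3 (PERK) rose by 0.30 in knockout (SE 0.102, adjusted p = 0.038), and Xbp1, the mRNA that IRE1 splices, by 0.36 (SE 0.122, adjusted p = 0.034). For Eif2ak3 1 of 2 further probe sets was called and pointed the other way. Both calls were lost without knockout sham array 2 or 3 (Eif2ak3 0.30 and 0.33, Xbp1 0.36 and 0.27). Without other single arrays, Eif2ak3 was also lost without knockout sham array 1 (0.27) and knockout MCAO arrays 2, 4 or 7 (0.29, 0.25 and 0.29), and Xbp1 without knockout MCAO array 3 (0.34). Atf6 was not called, with 0.09 in wild type and 0.30 in knockout. Between the genotypes' changes no gene of this group differed by the test (0 of 5 by limma, with estimates of 0.08 for Atf4 to 0.39 for Ern1). An unadjusted p under 0.05 was found for 1 of 5, beside 5732 of all 18193 genes. A further probe set was called for this difference for Atf4 (0.83) and for Xbp1 (0.57).

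The targets of the stress factors held the largest changes. Of 8 genes 6 rose in each genotype, with medians of 0.70 in wild type and 0.60 in knockout. Over all genes 8.68% rose in wild type and 16.1% in knockout. Ddit3, Ddit4, Chac1, Ppp1r15a and Nupr1 rose in both. Trib3 rose in wild type, Asns rose in knockout, and Stc2, a secreted glycoprotein gene, was called in neither by its chosen probe set (0.09 and -0.04), though 1 of 2 further Stc2 probe sets was called higher in wild type (0.58).

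Nupr1, a stress-induced chromatin-associated protein gene with a C/EBP-ATF element in the sequence above, moved most. Wild type sham arrays read 7.17, 7.49 and 6.81, and wild type MCAO arrays 8.70 to 9.55 with a median of 9.21. Knockout sham arrays read 6.93, 7.06 and 7.02, and knockout MCAO arrays 8.23 to 9.52 with a median of 9.37. No MCAO array came down to a sham array in either genotype, and 6 of the 7 knockout MCAO arrays stood close together with array 7 below them. Nupr1 rose 3.87-fold in wild type (1.95, SE 0.236, adjusted p = 1.5e-05) and 4.70-fold in knockout (2.23, SE 0.236, adjusted p = 2.45e-06). The difference between the changes was 0.28 (adjusted p = 0.573).

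Ppp1r15a codes for GADD34, which returns eIF2alpha to its unphosphorylated state. It read 8.16, 7.98 and 7.89 on wild type sham arrays and 8.83 to 9.85 (median 8.94) on wild type MCAO arrays. In knockout mice it read 8.05, 7.81 and 7.87 after sham and 8.35 to 9.32 (median 8.998) after MCAO. The groups were apart in both genotypes, by a wider gap in wild type. The rise was 1.05 in wild type (SE 0.214, adjusted p = 0.00218) and 1.02 in knockout (SE 0.214, adjusted p = 0.00183), or 2.06-fold and 2.02-fold.

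Chac1, a glutathione-degrading enzyme and ATF4 target, read 7.23, 7.42 and 7.09 on wild type sham arrays against 7.91 to 8.63 (median 8.30) after MCAO. In knockout the sham arrays read 7.30, 7.21 and 7.32 and the MCAO arrays 7.73 to 9.38 (median 8.15), the widest spread of the targets. All MCAO arrays lay above sham in both genotypes. Chac1 rose by 1.01 in wild type (SE 0.249, adjusted p = 0.00845) and 1.14 in knockout (SE 0.249, adjusted p = 0.00236). The wild type call was lost without wild type sham array 3 (0.94, adjusted p = 0.051).

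Ddit3, the gene of the pro-apoptotic factor CHOP, read 9.07, 9.13 and 8.71 in wild type sham and 9.25 to 9.56 (median 9.44) in wild type MCAO. Knockout sham arrays read 8.84, 8.54 and 8.87, and knockout MCAO arrays 9.12 to 9.79 (median 9.22). The groups were again apart in both genotypes, though narrowly in wild type. The rise was 0.44 in wild type (SE 0.142, adjusted p = 0.0401) and 0.63 in knockout (SE 0.142, adjusted p = 0.00303). With the mean of all its probe sets it was 0.28 in wild type, not called, and 0.38 in knockout, called. The wild type call was also lost when any of the 3 wild type sham arrays (0.31 to 0.52) or wild type MCAO arrays 1, 4, 5, 6 or 7 (0.41 to 0.45) was left out.

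Ddit4 (REDD1), an inhibitor of mTORC1, rose by 0.80 in wild type (SE 0.194, adjusted p = 0.00785) and 0.56 in knockout (SE 0.194, adjusted p = 0.0382). Its wild type sham arrays read 9.61, 9.71 and 9.76 and its MCAO arrays 9.91 to 10.89 (median 10.50). Knockout sham arrays read 9.30, 9.40 and 9.53, and MCAO arrays 9.56 to 10.48 (median 9.91), whose lowest values sit just above sham. The knockout call was lost without any of the 3 knockout sham arrays (0.51 to 0.63) or without knockout MCAO arrays 3, 4 or 7 (0.48, 0.48 and 0.55). Under repeated quantile normalization the knockout change was 0.39 (adjusted p = 0.169).

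Trib3, a pseudokinase induced by CHOP and ATF4, and Asns, asparagine synthetase, both hold the C/EBP-ATF element in the windows shown. Trib3 was dim, and was among the genes left out with the dimmest 40%. It read 5.90, 6.38 and 6.37 in wild type sham and 6.61 to 7.03 in wild type MCAO, without overlap, and rose by 0.60 (SE 0.141, adjusted p = 0.00623). In knockout mice its MCAO arrays (6.26 to 6.93) overlapped the sham arrays (6.41 to 6.50), with a change of 0.19 (adjusted p = 0.319). The wild type call was lost without wild type sham array 1 (0.44, adjusted p = 0.0813). Asns read 10.40, 10.33 and 10.37 in knockout sham and 10.63 to 11.19 (median 10.98) in knockout MCAO, and rose by 0.55 (SE 0.108, adjusted p = 0.00103). In wild type its MCAO arrays (10.66 to 10.86) lay just above sham (10.57 to 10.64) with a change of 0.14 that was not called (adjusted p = 0.378). The differences between the genotypes' changes were -0.41 for Trib3 (adjusted p = 0.164) and 0.41 for Asns (adjusted p = 0.0824), neither called. A second Asns probe set was called for the difference (0.68). Over the 8 targets the difference was called for 0 by limma.

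**Figure D3:**
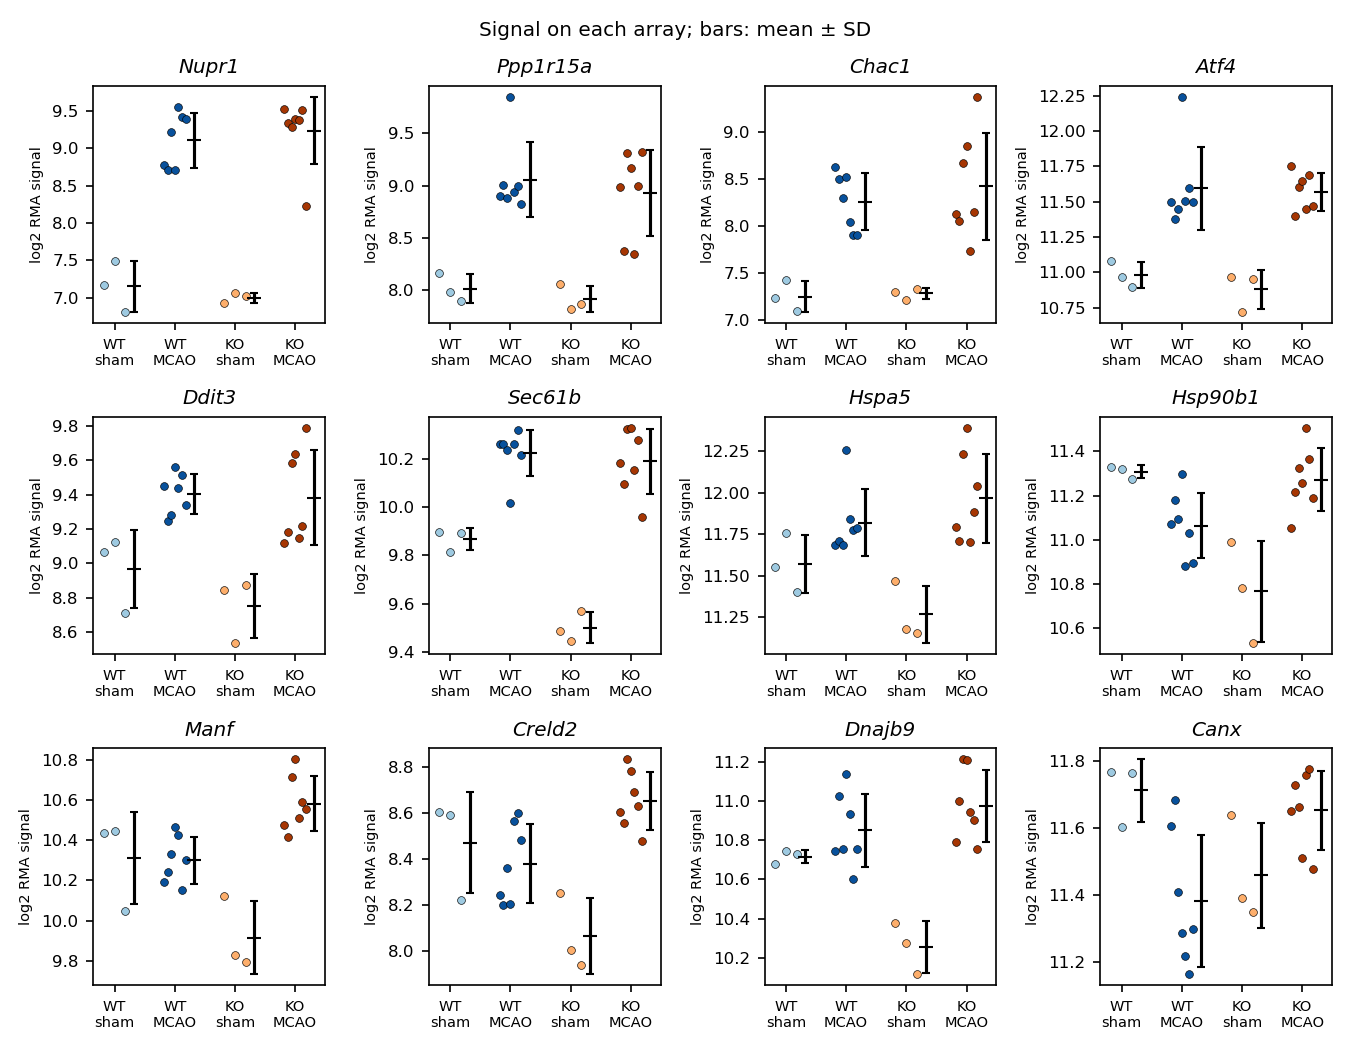
Log2 signal of 12 of the genes on each of the 20 surgery arrays, by group, with mean ± SD beside the points; each panel has its own vertical scale. From Nupr1 to Ddit3 the MCAO arrays of both genotypes stand above their sham arrays, whereas for Hsp90b1, Manf, Creld2 and Dnajb9 the knockout sham arrays are the low group.

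Among chaperones and folding enzymes of the ER, the difference between the genotypes' changes was called higher for 5 of 14, beside 4.09% of all genes. With repeated quantile normalization or the actin term it was called for 0. In wild type 0 of 14 rose and 1 fell, with a median change of -0.01. These counts lie near the shares over all genes there, of which 8.68% rose and 7.27% fell. In knockout 16.1% of all genes rose and 8.9% fell. Of the 14 folding genes 6 rose there (Hspa5, Hsp90b1, Dnajb9, Dnajb11, Manf and Creld2) and 0 fell, with a median of 0.36. These 6 also stood apart on the arrays, with all 7 knockout MCAO arrays above all 3 knockout sham arrays. Beside these counts, the knockout sham arrays were those with the high actin difference. With the actin difference as a covariate, or with quantile normalization repeated, 15 of the 35 genes rose in knockout, and of these 6 Dnajb11 alone was lost, with the quantile normalization.

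Hspa5 (BiP) read 11.47, 11.18 and 11.16 in knockout sham and 11.71 to 12.39 (median 11.88) in knockout MCAO, a rise of 0.70 or 1.62-fold (SE 0.148, adjusted p = 0.00194). In wild type the sham arrays read 11.55, 11.76 and 11.40 and the MCAO arrays 11.68 to 12.26 (median 11.78), which overlapped. The wild type change was 0.25 (SE 0.148, adjusted p = 0.255), with a 95% interval of -0.06 to 0.56, and the difference between the changes was 0.45 (adjusted p = 0.148). The knockout call held in all 30 other settings, array omissions included. Of 2 further Hspa5 probe sets 1 was called in the same direction, and the other pointed the other way without being called.

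Hsp90b1 (GRP94), the ER member of the Hsp90 family, changed by 0.75 more in knockout than in wild type, the largest such difference of the 35 genes as deposited. With the mean of its probe sets the difference was 0.57 (adjusted p = 0.0615), not called and below those of Manf and Creld2. It read 11.33, 11.32 and 11.27 in wild type sham, 10.88 to 11.30 (median 11.07) in wild type MCAO, 10.99, 10.78 and 10.53 in knockout sham and 11.05 to 11.51 (median 11.26) in knockout MCAO. The knockout sham arrays were the lowest on average but overlapped the wild type MCAO arrays. The knockout MCAO arrays spanned the wild type sham level. The change was -0.25 in wild type (adjusted p = 0.134) and 0.51 in knockout (SE 0.110, adjusted p = 0.00234). The knockout rise was not called with the mean of its probe sets (0.36, adjusted p = 0.0549).

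Manf and Creld2 code for small lumenal proteins that are secreted under ER stress. Manf read 10.12, 9.83 and 9.79 in knockout sham and 10.42 to 10.81 (median 10.56) in knockout MCAO, and rose by 0.67 (SE 0.110, adjusted p = 0.000218). Creld2 read 8.25, 8.00 and 7.94 in knockout sham and 8.47 to 8.83 (median 8.63) in knockout MCAO, and rose by 0.59 (SE 0.116, adjusted p = 0.00105). In wild type sham and MCAO arrays overlapped for both, with changes of -0.01 and -0.09. Both knockout calls held in all 30 other settings.

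Among the DnaJ co-chaperones of BiP, Dnajb9 (ERdj4) read 10.38, 10.27 and 10.11 in knockout sham and 10.76 to 11.22 (median 10.95) in knockout MCAO. It rose by 0.72 there (SE 0.118, adjusted p = 0.000219), against 0.13 in wild type (adjusted p = 0.453). Dnajb11 (ERdj3) rose by 0.39 in knockout (SE 0.0972, adjusted p = 0.00657), with 9.64, 9.53 and 9.30 in sham and 9.79 to 10.03 after MCAO, and changed by 0.20 in wild type (adjusted p = 0.173). Its knockout call was lost without knockout sham array 3 (0.29, adjusted p = 0.0794) and with repeated quantile normalization (0.22). Dnajc3, also known as an inhibitor of PERK, was called in neither genotype by its chosen probe set (-0.10 and 0.33). All 4 further Dnajc3 probe sets pointed up in knockout, where 3 of them were called higher (0.50 to 0.68), and 1 was called for the genotype difference (0.78).

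Of the lectin chaperones of glycoproteins, Canx (calnexin) was the single gene of the 35 that fell in wild type. It read 11.77, 11.60 and 11.77 in wild type sham and 11.16 to 11.68 (median 11.30) in wild type MCAO, which overlapped, and changed by -0.33 (SE 0.112, adjusted p = 0.0475). In knockout mice it changed by 0.19 (adjusted p = 0.206). The wild type call held in 10 of 30 other settings, and was lost without any wild type sham array (-0.39 to -0.30), knockout sham arrays 2 or 3, wild type MCAO arrays 3 to 7 or knockout MCAO arrays 1, 2, 3, 5 or 6 (-0.34 to -0.30). Calr (calreticulin) was called in neither genotype (0.02 and 0.23).

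The disulfide isomerase genes Pdia3, Pdia4 and Pdia6, the nucleotide exchange factor gene Hyou1 and Sdf2l1, a cofactor of BiP, were called in neither genotype. Their changes ran from -0.23 (Pdia6) to 0.19 (Hyou1) in wild type and from -0.27 (Sdf2l1) to 0.43 (Pdia3) in knockout. Knockout MCAO arrays were spread widely for Sdf2l1, from 6.24 to 8.06, with array 4 lowest. Pdia4 ran from 7.46 to 8.81 on the same arrays, with array 4 again lowest. A second probe set of Pdia6 was called in knockout in the direction opposite to the chosen one. The second probe set of Pdia4 was called lower in knockout (-0.59) and for the genotype difference (-0.66), and higher in knockout after sham (0.55), where the chosen one pointed down.

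In ER-associated degradation and translocation 2 of 8 genes rose in wild type (Edem1 and Sec61b), and in knockout 3 rose (Derl1, Derl2 and Sec61b) and 1 fell (Derl3). Over all genes 8.68% rose in wild type, and in knockout 16.1% rose and 8.9% fell. Sec61b, a subunit of the channel through which proteins enter the ER, rose in both. It read 9.90, 9.82 and 9.89 in wild type sham and 10.02 to 10.32 (median 10.26) in wild type MCAO, and 9.48, 9.44 and 9.57 in knockout sham against 9.96 to 10.33 (median 10.19) in knockout MCAO. The MCAO arrays of both genotypes were at nearly the same level, and the sham arrays were not. The change was 0.36 in wild type (SE 0.0884, adjusted p = 0.00888) and 0.69 in knockout (SE 0.0884, adjusted p = 1.69e-05). The wild type call was lost without wild type sham array 2 (0.33, adjusted p = 0.051).

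Derlins are membrane proteins through which misfolded proteins leave the ER. Derl1 read 9.70, 9.76 and 9.71 in knockout sham and 10.11 to 11.03 (median 10.33) in knockout MCAO, and rose by 0.72 (SE 0.169, adjusted p = 0.00425). Derl2 read 8.00, 7.81 and 7.75 in knockout sham and 8.17 to 8.64 (median 8.25) in knockout MCAO, and rose by 0.48 (SE 0.125, adjusted p = 0.00878). Neither was called in wild type (0.27 and 0.03). The Derl2 call was lost without knockout sham array 3 (0.43) and with the actin difference as a covariate (0.39). With the mean of its probe sets Derl1 rose by 0.44.

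Derl3 went the other way in knockout mice. It read 6.44, 6.36 and 6.43 in knockout sham and 5.88 to 6.34 (median 6.13) in knockout MCAO, all below sham. The change was -0.29 (SE 0.0990, adjusted p = 0.0343), against 0.18 in wild type (adjusted p = 0.224). The call was lost without any knockout sham array (-0.32 to -0.28), without knockout MCAO arrays 2, 5 or 7 (-0.28 to -0.26) and without the 4 arrays that stood apart (-0.23).

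Edem1, which marks misfolded glycoproteins for degradation, rose by 0.33 in wild type (SE 0.101, adjusted p = 0.0296), with 7.99, 8.16 and 8.04 in sham and 8.17 to 8.57 (median 8.39) after MCAO. In knockout it changed by 0.26 (adjusted p = 0.0652), and the difference of -0.07 was not called. A second Edem1 probe set was called higher in both genotypes (1.12 and 1.34). The wild type call was lost without wild type sham arrays 1 or 3 (0.29 and 0.32) or wild type MCAO array 7 (0.30), and the mean of its probe sets changed by 0.73. Herpud1, Sel1l and Syvn1, components of the HRD1 ubiquitin ligase complex of the ER membrane, were called in neither genotype. Their changes were 0.16, -0.23 and -0.13 in wild type and 0.38, 0.16 and 0.33 in knockout.

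The genes that hold the printed elements can be set beside those without them, with no test. Over all genes 8.68% rose in wild type and 16.1% in knockout. The 9 genes with the ER stress element were 7 folding and 2 ERAD genes, and 4 of the 5 with the C/EBP-ATF element were targets. Element and role thus cannot be told apart here. The genes without the ER stress element include Dnajb11 and Herpud1, which hold ER stress element II. Of the 9 genes with the ER stress element 0 rose and 1 fell in wild type, and 3 rose and 1 fell in knockout, with medians of -0.10 and 0.33. Of the 22 genes with a promoter entry and no such element, 9 rose in wild type and 14 in knockout, with medians of 0.21 and 0.45. Of the 5 genes with the C/EBP-ATF element 3 rose in each genotype, with medians of 0.60 and 0.55. Of the 26 without it 6 rose and 1 fell in wild type, and 14 rose and 1 fell in knockout, with medians of 0.06 and 0.38.

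The question whether the response to MCAO depended on genotype was put to the difference of the changes, knockout minus wild type. It was called for 6 of the 35 genes, 5 higher and 1 lower, against 9.59% of all genes (4.09% higher and 5.5% lower). The median difference was 0.28, beside 0.03 over all genes. Higher were Hsp90b1 (0.75, SE 0.155, adjusted p = 0.0176), Manf (0.68, SE 0.155, adjusted p = 0.0189), Creld2 (0.68, SE 0.163, adjusted p = 0.0213), Dnajb9 (0.59, SE 0.167, adjusted p = 0.0365) and Canx (0.52, SE 0.158, adjusted p = 0.0427), all chaperones or folding factors. The dim gene Derl3 was lower (-0.47, SE 0.140, adjusted p = 0.0406). By role, 5 of 14 folding genes were called higher, 1 of 8 ERAD genes lower, and 0 of the 5 sensors and 0 of the 8 targets. The same difference was called lower for 4 of 9 neutrophil and monocyte markers, 1 of 5 plasma and B cell markers and 2 of 5 liver markers, and higher for 2 of 5 microglia markers. For the other marker lists it was called for 0. The part of these cells in the difference was not tested.

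These differences can be read at each surgery. For Hsp90b1 knockout arrays were lower by -0.54 after sham and higher by 0.21 after MCAO. The same pair of values was -0.40 and 0.28 for Manf, -0.41 and 0.27 for Creld2, -0.46 and 0.12 for Dnajb9 and -0.25 and 0.27 for Canx. For Derl3 it was 0.43 and -0.05. For Hsp90b1, Dnajb9 and Derl3 most of the difference thus lay between the sham arrays. For Manf and Creld2 the larger part also lay there, and for Canx it was shared about evenly.

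The calls of the difference rested on few sham arrays and on the scaling. Without wild type sham array 1 or knockout sham array 3, 0 of the 35 genes were called by limma (11 at an unadjusted p under 0.05 in each case), and over all genes 100 and 0 were called. Of all 18193 genes, 4457 and 4251 had an unadjusted p under 0.05 in these fits. Without wild type sham array 2 or knockout sham array 2, 1 gene was called, and without wild type MCAO array 7 or knockout MCAO array 2, 3 were. Repeated quantile normalization left 0 of 35 genes called (4 at an unadjusted p under 0.05) and a linear term for the actin difference left 0 (9 at an unadjusted p under 0.05). Over all 18193 genes 3394 and 3804 had such an unadjusted p. The estimates kept their sign: with quantile normalization they were 0.51 for Hsp90b1, 0.41 for Manf, 0.46 for Creld2, 0.33 for Dnajb9, 0.30 for Canx and -0.38 for Derl3. With the actin term they were 0.77, 0.67, 0.66, 0.59, 0.51 and -0.43. Their limma adjusted p then ran from 0.0512 for Hsp90b1 to 0.117 for Derl3, and 8 of all genes were called. Without the 4 arrays that stood apart only Hsp90b1 was called (0.75, adjusted p = 0.0498). Over all genes the calls split 744 higher to 1000 lower as deposited, 1176 to 591 with arrays centred on their medians and 75 to 264 with repeated quantile normalization. The part of the actin difference in these values was not tested further, since it did not overlap between the genotypes' sham arrays.

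**Figure D4:**
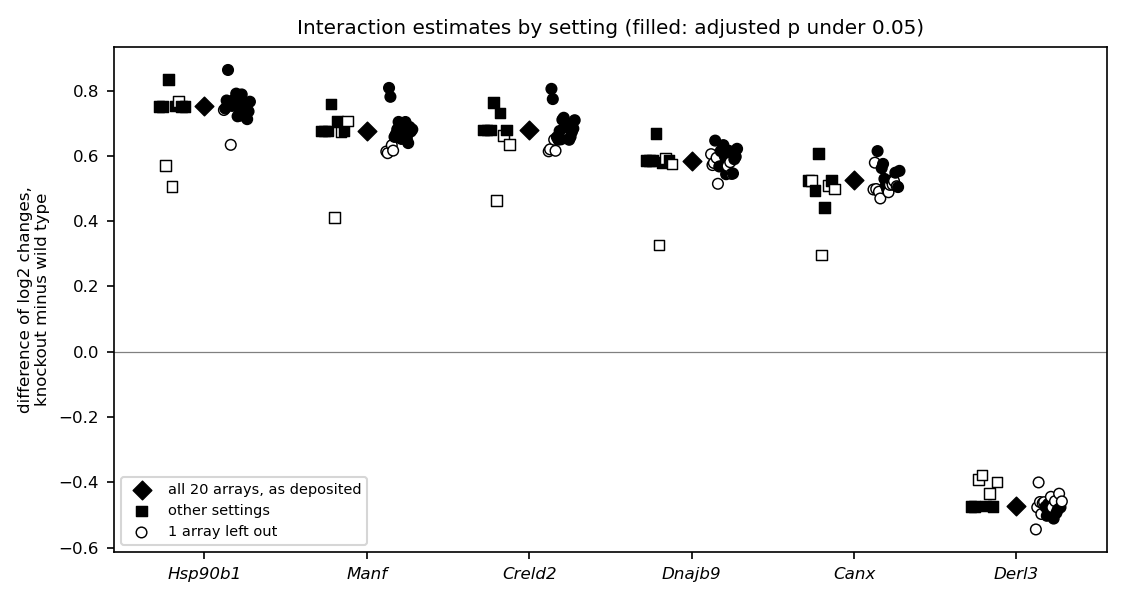
Difference of the MCAO changes, knockout minus wild type (log2), for the 6 called genes, from all arrays as deposited (diamonds), in other settings (squares) and with 1 array left out (circles); filled symbols had an adjusted p under 0.05. Every estimate keeps its sign, the lowest squares of the first 5 genes are those of repeated quantile normalization, and open symbols show where a call was lost.

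After sham surgery, 3 of the 35 genes differed between knockout and wild type, against 6.05% of all genes (3.52% higher and 2.53% lower). Hsp90b1 was lower in knockout by -0.54 (SE 0.130, adjusted p = 0.0254) and Sec61b by -0.37 (SE 0.105, adjusted p = 0.0418). The dim gene Derl3 was higher by 0.43 (SE 0.117, adjusted p = 0.0379). The arrays of the genotypes did not overlap for these genes. Further probe sets of genes whose chosen one was not called were called lower in knockout for Xbp1 (2 of 3, -0.50 and -0.53) and Atf4 (1 of 2, -0.71). All knockout arrays lay below all wild type arrays for 11 of the 35 genes (21.8% of all genes did so) and above for 2 (20.4%). The median difference of the 35 was -0.17, beside 0.02 over all genes, and the actin difference separated the same arrays. Of the markers, 1 of 5 microglia and 1 of 5 oligodendrocyte markers were lower in knockout, and 1 of 9 neutrophil and monocyte and 1 of 5 plasma and B cell markers higher. With the actin term or with repeated quantile normalization 0 of 35 were called by limma (7 and 4 at an unadjusted p under 0.05), and 0 were called when any wild type sham array or knockout sham array 2 or 3 was left out (6 to 9 at an unadjusted p under 0.05). Of all 18193 genes, 2638 had such an unadjusted p with the actin term and 3441 with the quantile normalization. On leaving out those sham arrays in turn, 3076 to 4230 did. Without knockout MCAO array 4, 5 were called. Over all genes the calls split 641 higher to 460 lower as deposited, 451 to 495 with median centring and 259 to 44 with repeated quantile normalization.

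**Figure D5:**
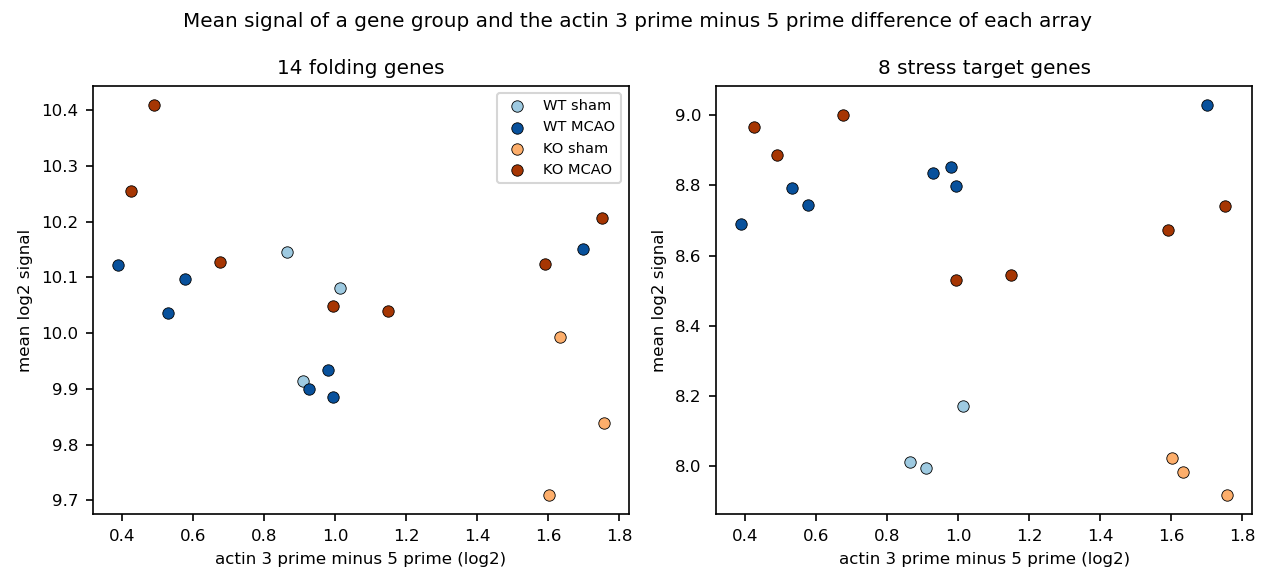
Mean log2 signal of the 14 folding genes (left) and the 8 stress targets (right) on each surgery array, against the 3 prime minus 5 prime difference of actin on that array. The 3 knockout sham arrays lie at 1.60 to 1.76 on the horizontal axis and include the lowest folding means (9.71 and 9.84), while the target means of all MCAO arrays (8.53 or more) lie above those of all sham arrays (8.17 or less).

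After MCAO none of the 35 genes differed between the genotypes by limma (0 of 35, against 0.044% of all genes, 0.0165% higher and 0.0275% lower). An unadjusted p under 0.05 was found for 10 of 35, beside 3165 of all 18193 genes. The median difference was 0.12, beside 0.01 over all genes. For 0 of the 35 were the knockout arrays all above or all below the wild type arrays. The largest differences were -0.52 for Ddit4 (95% interval -0.83 to -0.21, adjusted p = 0.129), 0.39 for Dnajc3 (0.16 to 0.62, adjusted p = 0.129) and 0.36 for Syvn1 (0.14 to 0.59, adjusted p = 0.137). For Hspa5 the difference was 0.14 (-0.09 to 0.38), for Atf4 -0.02 (-0.25 to 0.20) and for Nupr1 0.13 (-0.25 to 0.51). With the actin term Dnajc3 (0.43, adjusted p = 0.0226) and Syvn1 (0.38, adjusted p = 0.0450) were called higher in knockout.

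Other genes of the same pathways were counted from lists, beside which 8.68% of all genes rose in wild type and 16.1% in knockout, and 4.09% were called higher and 5.5% lower for the genotype difference. Of 31 further genes of the integrated stress response 11 rose and 0 fell in wild type, and 21 rose and 1 fell in knockout. Atf3, a stress-induced transcription factor, rose by 2.95 and 2.70, Cebpb, a partner of ATF4 and CHOP, by 1.75 and 2.03, the translation repressor Eif4ebp1 by 1.12 and 1.29, and the amino acid transporter subunit Slc3a2 by 0.82 and 1.14. The difference between genotypes was called for 0 of these 31.

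Of 28 further genes of translocation and traffic 8 rose and 1 fell in wild type, and 22 rose and 0 fell in knockout. Sec61a1, the channel subunit that pairs with Sec61b, rose by 0.60 and 0.94. The oligosaccharyltransferase gene Stt3a rose by 1.29 in knockout, and Ssr3 of the translocon-associated complex by 0.73. The difference was called higher in knockout for 4 of 28, namely Sec11c (0.62), Ssr2 (0.52), Sec63 (0.48) and Spcs3 (0.43).

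Of 22 further folding genes 3 rose and 1 fell in wild type, and 8 rose and 0 fell in knockout. The wild type count lies near the share over all genes. The isomerase P4hb rose by 0.83 and 0.86 and Serp1, which protects nascent proteins at the translocon, by 0.38 and 0.77. The difference was called for Fkbp11 alone, which was lower (-0.68). Of 19 further ERAD genes 2 rose and 2 fell in wild type, and 8 rose and 1 fell in knockout, with the ATPase Vcp rising by 0.48 in knockout. Edem3 (0.56) and Herpud2 (0.75) had a higher change in knockout. Of 20 further sensors and signalling genes 2 rose and 1 fell in wild type and 4 rose in knockout, near the shares over all genes in both. Ppp1r15b, the constitutive partner of Ppp1r15a in eIF2alpha dephosphorylation, had a higher change in knockout (0.58).

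In naive mice 0 of the 35 genes differed between genotypes by limma (0 at an unadjusted p under 0.05), against 14.7% of all genes (6.37% higher and 8.31% lower). An unadjusted p under 0.05 was found for 5049 of all 18193 genes. Without wild type array 6, whose median correlation with the other naive arrays was 0.819, 6 were higher and 1 lower in knockout, with 6627 of all genes called. The knockout naive arrays shared 0 identical values with the wild type naive arrays in 56 pairs, while surgery arrays of different groups shared 2 to 26 a pair. Pairs of knockout naive arrays shared 1744 to 2878 identical values, and pairs of wild type naive arrays 1 to 48. Whether the naive arrays of each genotype were normalized on their own is not given in the sources used here. Medians were 6.87 to 6.94 on wild type and 7.03 to 7.05 on knockout arrays. Genotype and scaling of the arrays cannot be told apart here, so no direction is given for single genes. Centring on array medians moved the median difference of all genes from 0.05 to -0.10.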

How the data were processed

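Hemisphere RNA was measured on Affymetrix arrays, 20 after surgery and 15 from naive mice. The authors deposited log2 signals, made with RMA per the submitters' processing notes, in a version not given in the sources used here. Naive arrays were normalized apart, per the labels. RMA scales arrays to a common distribution, so a value depends on the arrays processed with it, and arrays carry no counts, so their number limits the precision. Of 45101 probe sets 64 were controls, 34945 had 1 gene symbol in the platform annotation, 932 had several and 9160 had none listed. Of those with 1 symbol 34741 were matched to RefSeq by Entrez ID, giving 18193 genes, each read from its probe set of highest mean. Columns were mapped to samples by title. Group means were fitted with limma 3.58.1 (lmFit, contrasts.fit, eBayes) in R 4.3.3, once to the 20 surgery arrays together and once to the 15 naive arrays, with Benjamini-Hochberg adjustment over all genes. The SE is the moderated one of limma. The fit was tested on simulated data with independent noise for each gene and array. That simulation held no array-wide differences such as the actin difference, so it does not bear on them. The 35 genes, the other gene lists and the markers were chosen with earlier results of these data known. All 35 genes are accounted for, those called in any comparison with their values, and up to 4 called genes of the smallest p of each other list were eligible for naming, of which some were named. The gene targeted in the knockout is not reported here. Other settings were a robust prior with an intensity trend, omission of the dimmest 40% of genes, the mean of all probe sets, median centring, repeated quantile normalization, array weights, a term for the actin 3 prime minus 5 prime difference, a replicate block, a fit of just the arrays of a comparison, and omission of each array in turn. Leaving out the 4 arrays that stood apart, and naive quantile normalization without wild type array 6, were chosen after seeing the data.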

Additional observations from a re-analysis of the deposited data

Results flagged for a closer look

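Within the groups of 7 or 8 arrays, 140 sets of values (35 genes in 4 groups) were examined for an array far from the others by Dixon's test, of which chance alone would mark about 1 in 20. It marked 39. Wild type MCAO array 4 was the highest of its group for Hspa5 (12.26), Sdf2l1 (8.42), Herpud1 (10.64), Atf6 (9.91), Atf4 (12.24) and Ppp1r15a (9.85), and the lowest for Sec61b (10.02) and Eif2ak3 (8.46). Its actin 3 prime minus 5 prime difference was 1.70, the highest of the wild type MCAO arrays, whose others read 0.39 to 0.99, and the part of this in the gene values was not tested. Without that array the rises of Atf4 and Ppp1r15a in wild type were still called.

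In knockout mice MCAO array 4 was the highest for Eif2ak3 (9.25) and array 7 the lowest for Nupr1 (8.23), although array 7 was the highest for Chac1 (9.38) and Ddit3 (9.79). Among naive arrays wild type array 6 stood apart for 26 of the 35 genes, knockout array 4 for 2 and knockout array 3 for 1. On wild type naive array 6 the actin difference was 4.88 and the Gapdh difference 3.51.

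As deposited, the change after MCAO differed between the genotypes for 6 genes by the test of the difference itself, with knockout minus wild type values of 0.75 for Hsp90b1, 0.52 for Canx, 0.59 for Dnajb9, 0.68 for Manf, 0.68 for Creld2 and -0.47 for Derl3. With repeated quantile normalization, with the actin term, or without wild type sham array 1 or knockout sham array 3, 0 of the 35 genes were called. Without the 4 arrays that stood apart 1 was called.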

How the results depend on the processing

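Calls of the 35 genes after MCAO (10 in wild type, 20 in knockout) stayed within 1.5 times under every setting run other than leaving out 1 array. Leaving out 1 array gave 6 to 11 in wild type (1425 to 3224 over all genes) and 14 to 21 in knockout (2341 to 5397). Over all genes, array weights gave 4472 calls in wild type and 7239 in knockout, and the actin term 2856 in knockout. In knockout mice Eif2ak3 (-0.11) and Ern1 (-0.028) turned direction with the mean of all probe sets, and neither was called there. Averaging takes in probe sets that point the other way.

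The 6 calls of the difference became 0 with repeated quantile normalization, 12 with array weights, 0 with the actin term and 1 without the 4 arrays. Over all genes it was called for 638 without dim genes, 339 with quantile normalization, 4100 with array weights, 8 with the actin term and 63 without the 4 arrays. Leaving out 1 array gave 0 to 8 of the 35 genes, and 0 to 2698 of all genes.

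Between genotypes after MCAO the actin term gave 2 calls of 35 and 986 over all genes, only the arrays compared gave 3 over all genes, and leaving out the 4 arrays gave 4. Leaving out 1 array gave 0 of 35 throughout and 3 to 38 over all genes. After sham the 3 calls became 5 with the mean of probe sets, 0 with quantile normalization, 11 with array weights, 0 with the actin term, 5 with only the arrays compared and 6 without the 4 arrays. Over all genes the same comparison gave 450 without dim genes, 303, 5891, 6, 3402 and 2443 in the order of the other 5 settings. Leaving out 1 array gave 0 to 5 of 35 and 0 to 1833 of all genes. In naive mice the 35 genes had 1 call with the mean of probe sets, 1 with median centring, 9 with array weights, 4 with the actin term and 4 with quantile normalization without wild type array 6. Over all genes there were 357 without dim genes, 1500 with quantile normalization, 7637 with array weights, 6243 with the actin term and 4048 with quantile normalization without array 6. Leaving out 1 naive array gave 0 to 7 of 35 and 2004 to 6627 of all genes. The cause of these shifts was not tested.

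Deviations of same-numbered arrays correlated between -0.28 and 0.36. Across the comparisons of groups, their medians ran from -0.14 to 0.14, and those of arrays with unlike numbers from -0.04 to 0.06. Comparisons with a sham group rest on 3 same-numbered pairs. These values therefore do not decide whether the replicate numbers pair the arrays. With the number as a replicate block 7 of the 35 genes were called in wild type, 17 in knockout, 6 for the difference, 0 after MCAO, 3 after sham and 0 in naive mice.

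Sham groups of 3 arrays limit the comparisons that use them, and no detection calls were used, so whether a dim gene was above background is not known.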

Other observations

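Some of the genes stood at unlike levels on wild type MCAO arrays 1 to 4 and 5 to 7, which the labels do not tell apart. Hyou1 read 9.48 to 9.66 on arrays 1 to 4 and 8.91 to 8.98 on arrays 5 to 7, and Pdia3 read 10.83 to 11.31 and 10.66 to 10.71 on the same arrays. Xbp1 went the other way, with 11.21 to 11.33 on arrays 1 to 4 and 11.53 to 11.68 on arrays 5 to 7. These genes were picked after their values were seen, no test was made, and the labels give no batch.

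The median change of the 14 folding genes against the sham mean of the same genotype was positive on wild type MCAO arrays 1 to 4 (0.04 to 0.07) and negative on arrays 5 to 7 (-0.19 to -0.17), whereas for the 8 stress targets it was positive on all 7 (0.40 to 1.002). On knockout MCAO arrays it was positive for both groups on all 7, from 0.29 to 0.49 for folding genes and from 0.39 to 0.98 for the targets. On 13 of the 14 MCAO arrays either Nupr1 or Ppp1r15a had the largest change of the 35 genes, and on knockout array 7 it was Chac1.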
